A study of Mus musculus with 16 samples.

Results

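Splenic B cells of mice fed acetylated starch (the HAMSA diet) were compared with those of mice fed butyrylated starch (the HAMSB diet). The comparison rests on 8 of the 16 poly(A) RNA libraries of the series, chosen by their diet labels alone, with 4 libraries a side (HAMSA 1, 2, 3 and 6 and HAMSB 1, 2, 5 and 6). All mice were of the NOD.LT strain, a non-obese diabetic strain prone to autoimmune diabetes, were 15 weeks old and had eaten their diet freely for the last 5 weeks. HAMSA is high-amylose maize starch carrying acetate, HAMSB is the same kind of starch carrying butyrate, HAMS is the plain starch, and NP, which the feeding protocol lists as Gordons, is not described further. HAMS and NP, with 4 libraries each, were used here to estimate the spread between libraries and are given for context. B cells were enriched by negative selection, in which antibodies hold back the other spleen cells. The labels state 4 samples a diet and also triplicates, and they do not tie libraries to animals, so the p-values measure the spread between these libraries, which may be technical.

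High-amylose starch resists digestion in the small intestine and is fermented by colonic bacteria, which also cleave off the acid that the starch carries. Acetate and butyrate are short-chain fatty acids that signal through G protein-coupled receptors such as those encoded by Ffar2 and Ffar3 and enter cells through monocarboxylate carriers. Acetate is also a source of acetyl-CoA, while butyrate inhibits histone deacetylases, enzymes that remove acetyl groups from histones. In B cells, immediate early genes are switched on within minutes of a stimulus, heat shock genes answer misfolded protein, and glucocorticoid response genes answer adrenal steroids.

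The deposited counts summed to 30723337, 17453528, 15053965 and 16184519 in HAMSA libraries 1, 2, 3 and 6, against 38714310, 42365411, 34720317 and 46206200 in HAMSB libraries 1, 2, 5 and 6 (exact two-sided permutation p = 0.0286, which is the lowest value this design can give; adjusted p = 0.206 over 18 library measures). The 14 B cell markers summed to 16170 to 18600 CPM (counts scaled to a common library total) in HAMSA and 16130 to 17800 CPM in HAMSB. These sums compare the diets and do not measure how pure the B cells were. Reads outside annotated exons made up 11.3% ± 1.09 in HAMSA and 14.7% ± 1.93 in HAMSB (SD, n = 4 each; exact permutation p = 0.0286, adjusted p = 0.206). Markers of red cell precursors summed to 1885, 6950, 741 and 6633 CPM in HAMSA, against 962, 1922, 164 and 157 CPM in HAMSB (exact permutation p = 0.143, adjusted p = 0.321), and all 21 measured had a positive log2 fold change (HAMSA over HAMSB). The markers of neutrophils, macrophages and T cells summed to 100.9 to 403, 584.2 to 772.9 and 161.1 to 428.6 CPM in HAMSA, and to 58.6 to 341.6, 408.1 to 884.1 and 151.3 to 521.3 CPM in HAMSB, ranges that overlapped. HAMSA 2 and HAMSA 3 stood apart from the other 14 libraries in GC slope. The slope of a gene's relative level on the GC content of its transcript was 0.226 and 0.415 log2 CPM per 10 points of GC in these libraries, and −0.306 to 0.111 in the others. Results are therefore also given without HAMSA 2 and HAMSA 3. HAMSB 5 stood out on other measures. The slope on the log10 of transcript length was lowest in HAMSA 3 (−0.645) and HAMSA 2 (−0.494) and highest in HAMSB 5 (0.630). HAMSB 5 also had the smallest share of reads matching several places (11.4%) and the largest share of unmapped reads (10.2%) of all libraries.

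**Figure D1:**
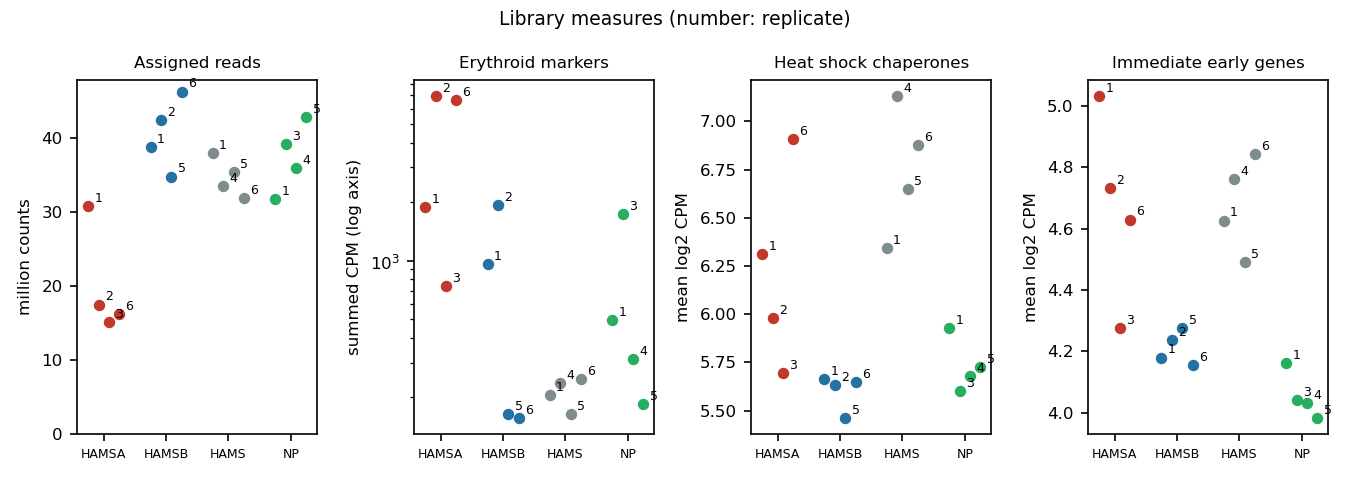
Each point is 1 library, numbered by its replicate, for 4 diets. The panels give assigned reads, the summed CPM of erythroid markers on a log axis, and the mean log2 CPM of the heat shock and immediate early lists. HAMSA 2, 3 and 6 are the shallowest libraries, HAMSA 2 and 6 hold the most erythroid reads, and HAMSA 6 has the highest heat shock level of the HAMSA and HAMSB libraries.

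Between HAMSA and HAMSB, 88 genes were called higher and 29 lower at an adjusted p under 0.05 (quasi-likelihood F test of edgeR, Benjamini-Hochberg adjusted over 15021 genes), which is 0.586% and 0.193% of the genes tested and 0.779% together. The higher group was led by Cebpb, a transcription factor of inflammatory responses, and held immediate early, glucocorticoid response and unfolded protein response genes. The lower group included Cd55, Slamf7, Slamf1, Il5ra and Cd180, which encode surface molecules, and the corepressor gene Bcor. The median log2 fold change (HAMSA minus HAMSB) was 0.67 among the higher genes and −0.73 among the lower ones, with sizes of 0.29 to 2.57 and 0.32 to 1.74. Over all genes tested the median was −0.00395. The 4 libraries of each diet did not overlap for any of the 88 higher genes and for 28 of the 29 lower ones, the exception being Slfn8, a gene chosen after its values were seen. Such separation was found in 1324 of all genes tested, or 8.81% (4.65% higher and 4.16% lower).

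The number of calls depended on single libraries. It was 18 without HAMSA 2, 19 without HAMSA 3, 13 without HAMSB 5, 27 without HAMSB 6, 35 without HAMSB 1, 79 without HAMSA 1 and 187 without HAMSA 6, and 8 without both HAMSA 2 and HAMSA 3 (8 higher and 0 lower, 3 of them among the 117). No called gene changed direction in any of these fits. Since the libraries of nearly all called genes did not overlap, leaving out libraries could hardly change a direction, so this says little about how firm the calls are. With reads outside exons entered as a covariate, 0 genes were called (1084 at an unadjusted p under 0.05), with the level of the erythroid markers as a covariate 2, and with the 8 HAMSA and HAMSB libraries alone 4, while DESeq2 called 600 and limma voom 86. The part of these library measures in the calls was not tested further. With every library thinned to the smallest total, 90 genes were called, 87 of them among the 117. In bulk RNA, fewer cells that express a gene and less of its RNA per cell cannot be told apart.

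**Figure D2:**
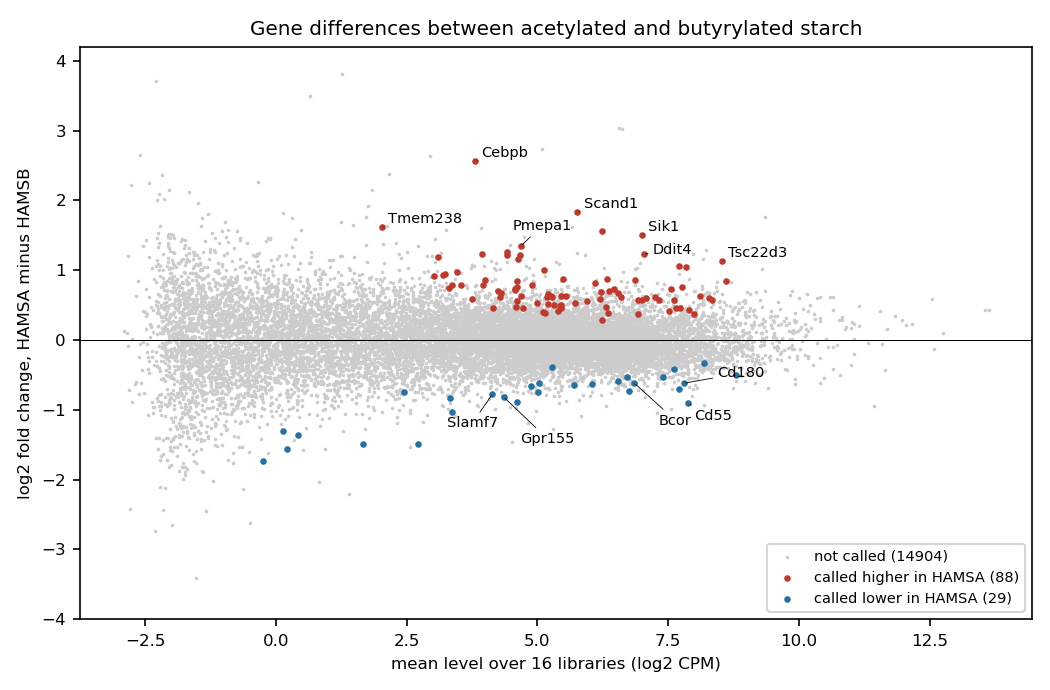
Log2 fold change (HAMSA minus HAMSB) of 15021 genes against their mean level over 16 libraries, in log2 CPM. Red marks the 88 genes called higher in HAMSA and blue the 29 called lower, and Cebpb has the largest called change at 2.57.

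In this fit, immediate early genes were the list with the most calls. Of 27 measured members, 6 were called higher in HAMSA and 0 lower, 23 had a positive log2 fold change, and the median was 0.56. Without HAMSA 2 and HAMSA 3, 1 member was called, and 1 with both the GC and the length curve of each library taken out, while DESeq2 called 9 (and 11 heat shock and 10 unfolded protein response genes). The 6 were Ier5, Jund, Ier2, Dusp2, Junb and Dusp1. Jund and Junb encode subunits of the AP-1 transcription factor, Dusp1 and Dusp2 phosphatases that switch off MAP kinases, and Ier2 and Ier5 nuclear proteins that are induced by growth factors and stress.

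Ier5 stood at 402, 397, 392.5 and 373 CPM in HAMSA 1, 2, 3 and 6, against 259.5, 247, 248 and 281 CPM in HAMSB 1, 2, 5 and 6. Ier2 stood at 114, 113, 107 and 119 CPM in HAMSA, against 55.8, 63.1, 78.6 and 76.1 CPM in HAMSB. For both genes the HAMSA libraries lay close together and all above the HAMSB libraries. The log2 fold change was 0.60 ± 0.08 for Ier5 (SE; adjusted p = 0.00798) and 0.73 ± 0.12 for Ier2 (adjusted p = 0.0149). Jund stood at 322, 387, 361 and 269 CPM in HAMSA, against 150.5, 155, 168 and 172 CPM in HAMSB. Junb stood at 129, 115, 95 and 105 CPM in HAMSA, against 58.6, 59.4, 81.9 and 71.9 CPM in HAMSB. Every HAMSA library of these AP-1 genes exceeded every HAMSB library, with HAMSB 5 the nearest for Junb, and the log2 fold changes were 1.05 ± 0.16 for Jund (adjusted p = 0.0111) and 0.71 ± 0.12 for Junb (adjusted p = 0.0187).

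Dusp2 stood at 180.2, 184, 187 and 185 CPM in HAMSA, against 117, 132, 104 and 126 CPM in HAMSB, a log2 fold change of 0.62 ± 0.10 (adjusted p = 0.0155). Dusp1 stood at 31.1, 18.4, 17.8 and 38.6 CPM in HAMSA, against 11.2, 12.5, 11.9 and 8.44 CPM in HAMSB (1.26 ± 0.25, adjusted p = 0.0273). Dusp2 was nearly level across the HAMSA libraries, whereas Dusp1 was highest in HAMSA 1 and HAMSA 6. Ier5, Jund and Ier2 kept their call in 8 of 8 omissions of a library, Dusp2 in 5 (highest adjusted p = 0.0567 without HAMSB 5) and Dusp1 in 4 (0.11 without HAMSB 6). Without both HAMSA 2 and HAMSA 3, Dusp1 alone was called (adjusted p = 0.0201). Ier5 (0.0685), Jund (0.133), Ier2 (0.0716) and Dusp2 (0.124) then lost their call.

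Other immediate early genes did not pass. Egr1, an early growth response factor, averaged 25.7 ± 8.55 CPM in HAMSA and 25.5 ± 6.92 CPM in HAMSB (SD, n = 4 each), a log2 fold change of 0.02 ± 0.20 (adjusted p = 0.968). Fos, the AP-1 partner of Jun, averaged 13.9 ± 16 CPM in HAMSA and 3.72 ± 2.13 CPM in HAMSB and did not pass (1.91 ± 0.69, adjusted p = 0.181). Jun itself averaged 48.2 ± 24.1 CPM in HAMSA and 25.3 ± 6.95 CPM in HAMSB (0.94 ± 0.30, adjusted p = 0.147). Junb, Egr1, Fos and Jun were chosen after the values were seen. The mean log2 CPM of the list was 5.03, 4.73, 4.28 and 4.63 in HAMSA 1, 2, 3 and 6, against 4.18, 4.24, 4.28 and 4.16 in HAMSB 1, 2, 5 and 6. HAMSA 3 was level with HAMSB 5, the highest HAMSB library, and the other HAMSA libraries lay above.

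The promoters of the called immediate early genes are shown because this list had the most calls in the edgeR fit, and were taken from RefSeq on GRCm38.p6 with 250 bases before and 50 after the start site. Of the 6 genes, 5 had an entry (Ier2 had none), and Jund is not shown because its RefSeq start lies 1210 bases from the start that GENCODE M21 gives. The windows are chr1:155099587-155099886 (minus strand) for Ier5, chr2:127335909-127336208 (plus strand) for Dusp2, chr8:84978699-84978998 (minus strand) for Junb and chr17:26508423-26508722 (minus strand) for Dusp1. Each is written 5′ to 3′ in the direction of transcription. Capitals mark matches to the cAMP response element TGACGTCA, the heat shock element core GAANNTTC or the AP-1 element TGANTCA, searched on both strands.
Ier5: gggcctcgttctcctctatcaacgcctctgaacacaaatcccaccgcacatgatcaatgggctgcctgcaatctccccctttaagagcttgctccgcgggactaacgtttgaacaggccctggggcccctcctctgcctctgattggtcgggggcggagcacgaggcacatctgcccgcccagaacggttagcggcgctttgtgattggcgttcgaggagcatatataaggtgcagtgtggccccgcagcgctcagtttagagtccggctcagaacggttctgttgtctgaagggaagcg
Dusp2: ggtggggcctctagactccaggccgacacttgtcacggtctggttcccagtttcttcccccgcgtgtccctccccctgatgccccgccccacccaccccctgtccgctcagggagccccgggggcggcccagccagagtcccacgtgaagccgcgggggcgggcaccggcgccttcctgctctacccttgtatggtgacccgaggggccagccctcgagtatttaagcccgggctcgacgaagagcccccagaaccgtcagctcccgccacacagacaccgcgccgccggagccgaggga
Junb: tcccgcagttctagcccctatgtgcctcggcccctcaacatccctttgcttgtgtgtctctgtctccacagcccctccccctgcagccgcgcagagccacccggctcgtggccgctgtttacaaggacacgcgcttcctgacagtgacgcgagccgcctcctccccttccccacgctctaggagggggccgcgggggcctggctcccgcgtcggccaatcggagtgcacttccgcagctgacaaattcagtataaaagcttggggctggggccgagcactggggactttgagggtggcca
Dusp1: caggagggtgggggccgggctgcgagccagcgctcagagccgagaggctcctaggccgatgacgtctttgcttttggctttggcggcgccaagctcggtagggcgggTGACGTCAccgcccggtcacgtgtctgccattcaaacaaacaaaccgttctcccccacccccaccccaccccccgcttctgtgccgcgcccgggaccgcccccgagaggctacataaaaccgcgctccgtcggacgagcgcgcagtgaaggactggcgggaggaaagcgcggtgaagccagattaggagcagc
The search found 1 match in these windows, a TGACGTCA in the promoter of Dusp1. Of all 32851 RefSeq promoters, 1.79% held TGACGTCA, 7.86% GAANNTTC and 7.81% TGANTCA. Of the genes called higher, 67 had a promoter entry, of which 4 held TGACGTCA, 5 GAANNTTC and 5 TGANTCA. Of the genes called lower, 23 had an entry, of which 0 held TGACGTCA, 0 GAANNTTC and 2 TGANTCA. The shares over all promoters count every entry, also of genes not tested here, while called genes count once each. Called genes also differ from the rest in GC content, so these counts show no enrichment, and none was tested.

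Glucocorticoid response genes had 4 of 15 members called higher and 0 lower, with a median log2 fold change of 0.889. They were Cebpb, Dusp1, Ddit4 and Tsc22d3, of which Dusp1 was called without HAMSA 2 and HAMSA 3. Tsc22d3 encodes the glucocorticoid-induced leucine zipper, and the product of Ddit4 holds back mTORC1, a kinase complex for growth. Cebpb, on chromosome 2 from 167688915 to 167690418 (GRCm38, GENCODE M21; plus strand) and made of 1 exon, stood at 19.7, 27.4, 21.4 and 34.4 CPM in HAMSA 1, 2, 3 and 6, against 4.35, 4.66, 3.23 and 5.03 CPM in HAMSB 1, 2, 5 and 6. Every HAMSA library was several-fold above every HAMSB library. The log2 fold change was 2.57 ± 0.39 (SE, adjusted p = 0.0111), and the call was lost in 1 of 8 omissions (adjusted p = 0.055 without HAMSB 5).

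Tsc22d3 stood at 341, 243, 479 and 638 CPM in HAMSA, against 216, 220.0, 185 and 155 CPM in HAMSB (1.13 ± 0.25, adjusted p = 0.0477). Ddit4 stood at 108, 83.4, 166 and 177 CPM in HAMSA, against 69.6, 64, 46 and 48 CPM in HAMSB (1.23 ± 0.24, adjusted p = 0.0268). HAMSA 3 and HAMSA 6 were the high libraries for both genes, and HAMSA 2 was the nearest to the HAMSB libraries. The call of Tsc22d3 held in 1 of the 8 omissions, with a highest adjusted p of 0.166 without HAMSB 6, and that of Ddit4 in 4, with 0.109 without HAMSB 5. Fkbp5, a glucocorticoid-induced immunophilin chosen after its values were seen, averaged 178 ± 40.1 CPM in HAMSA and 86.8 ± 35.4 CPM in HAMSB without passing (1.04 ± 0.34, adjusted p = 0.16). Nr3c1, the glucocorticoid receptor gene and likewise chosen, averaged 234 ± 82.7 CPM in HAMSA and 243 ± 45.1 CPM in HAMSB (−0.05 ± 0.24, adjusted p = 0.913). The mean log2 CPM of the list was 4.47, 4.43, 4.46 and 4.54 in HAMSA and 3.99, 3.96, 3.66 and 3.62 in HAMSB, so the libraries of the diets did not overlap. The heat shock, unfolded protein response and Bcl2 family apoptosis lists did not overlap either, while all other lists did. Among single genes, 8.81% of those tested showed such separation, and whether more lists separated than that share was not tested. For the Bcl2 family the means were 4.962 to 5.209 in HAMSA and 4.581 to 4.945 in HAMSB. The lists were chosen with earlier results of these data known.

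Sik1, a salt-inducible kinase whose gene is a target of cAMP signalling, stood at 123, 74.1, 121 and 282 CPM in HAMSA, against 52.5, 53.1, 54.6 and 52.1 CPM in HAMSB. The HAMSB libraries were almost identical, while HAMSA ranged from a value near HAMSB in HAMSA 2 to the highest in HAMSA 6. The log2 fold change was 1.5 ± 0.30 (adjusted p = 0.0273), called in 3 of the 8 omissions, with a highest adjusted p of 0.102 without HAMSB 6. Sik1 and Dusp1 were the 2 called of 19 cAMP and CREB targets, whose median was 0.348. Sik1 lies on chromosome 17 from 31844250 to 31855804 (minus strand).

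**Figure D3:**
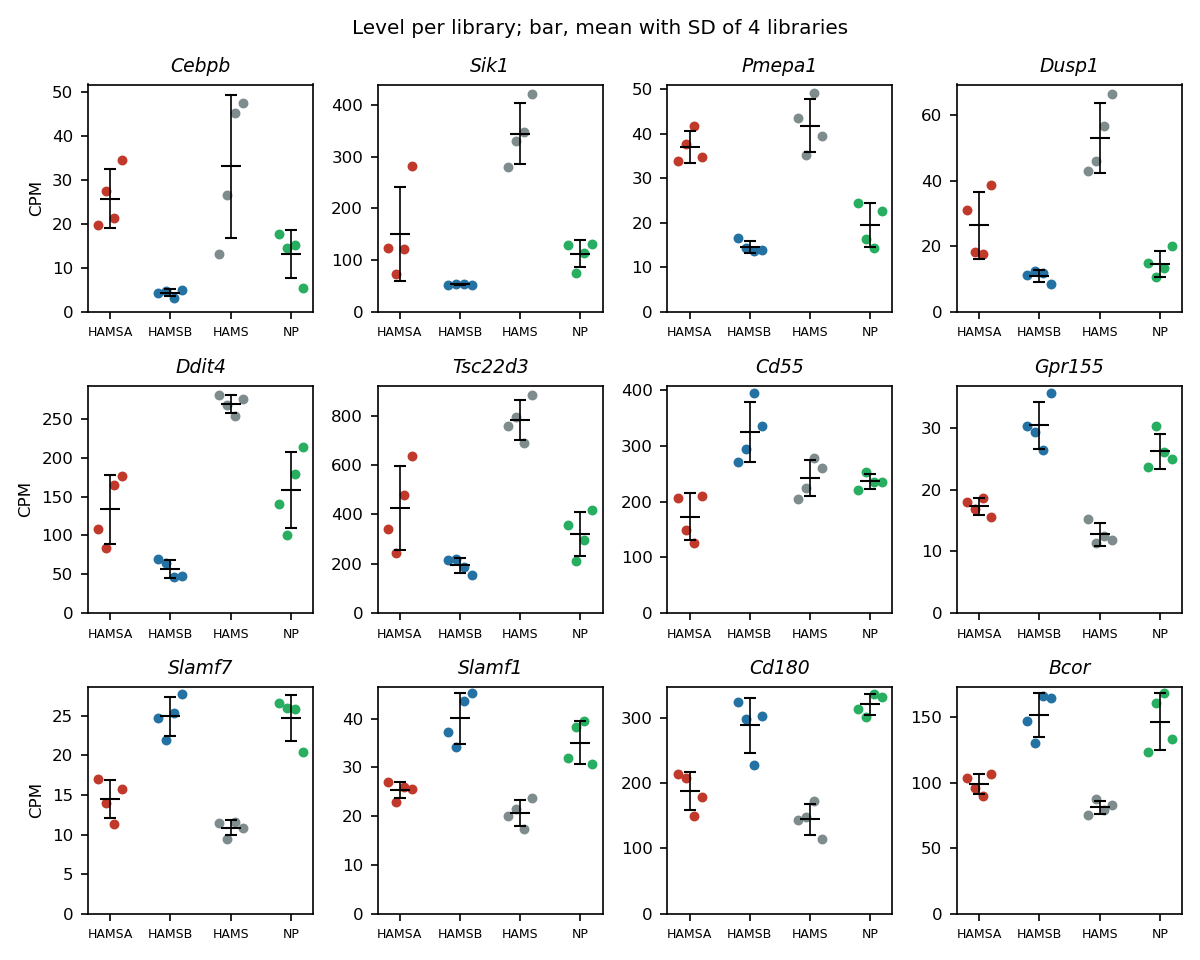
Level of 12 named genes in CPM for each library of the HAMSA, HAMSB, HAMS and NP diets. Points are libraries and bars the mean with the SD of 4. The first 6 genes were called higher and the last 6 lower in HAMSA than in HAMSB. The 2 diets do not overlap in any panel, as for all 88 genes called higher and 28 of the 29 called lower.

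Heat shock chaperone genes had positive log2 fold changes for 25 of 27 members, with a median log2 fold change of 0.642, but none was called over all genes (19 had an unadjusted p under 0.05 in edgeR's test, DESeq2 called 11 and limma voom 0, and 3 were called with the GC and length curves taken out). Hspa1b, which encodes an inducible HSP70 chaperone, stood at 6.36, 1.79, 0.599 and 24.6 CPM in HAMSA 1, 2, 3 and 6, against 0.56, 0.346, 0.702 and 0.755 CPM in HAMSB 1, 2, 5 and 6 (3.81 ± 0.89, adjusted p = 0.0611). Its near-identical neighbour Hspa1a stood at 5.01, 0.982, 0.266 and 15.8 CPM in HAMSA, against 0.432, 0.646, 0.393 and 0.453 CPM in HAMSB (3.50 ± 0.88, adjusted p = 0.0791). Both genes were high in HAMSA 1 and HAMSA 6, and HAMSA 3 lay within or below the HAMSB libraries. How reads that match both genes were counted is not given, so the level of each is uncertain. Fkbp4, a co-chaperone of HSP90, stood at 209, 207, 214 and 300.1 CPM in HAMSA, against 155, 132, 133 and 176 CPM in HAMSB (0.64 ± 0.15, adjusted p = 0.0714), with HAMSA 6 far above the other HAMSA libraries.

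The mean log2 CPM of the heat shock list was 6.31, 5.98, 5.70 and 6.91 in HAMSA 1, 2, 3 and 6, against 5.67, 5.63, 5.46 and 5.65 in HAMSB 1, 2, 5 and 6. HAMSA 6 was the highest, and HAMSA 3 lay just above the highest HAMSB library. The list's median was 1.29 among libraries numbered 5 and 6, where HAMSA 6 is the lone HAMSA library, and 0.312 among those numbered 1 to 4. Without HAMSA 2 and HAMSA 3, Hspa1b and Hspa1a were called, at 4.69 (adjusted p = 0.0223) and 4.41 (adjusted p = 0.0203). Hsf1, which encodes the main heat shock factor and was chosen after its values were seen, averaged 105 ± 8.31 CPM in HAMSA and 107 ± 14.9 CPM in HAMSB (−0.02 ± 0.11, adjusted p = 0.923).

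Genes of the unfolded protein response, which serves protein folding in the endoplasmic reticulum, had 4 of 26 members called higher and 0 lower, with 23 positive and a median of 0.284. Without HAMSA 2 and HAMSA 3, 0 were called. Manf, a secreted stress-induced factor of the endoplasmic reticulum, stood at 98.6, 145, 112 and 117 CPM in HAMSA, against 80.9, 86.4, 59.1 and 70.1 CPM in HAMSB (0.67 ± 0.15, adjusted p = 0.0448). Creld2, another stress-induced protein of that compartment, stood at 63.4, 82.3, 84.6 and 76.7 CPM in HAMSA, against 48.5, 53.5, 49.8 and 56.3 CPM in HAMSB (0.56 ± 0.11, adjusted p = 0.0301). All HAMSA libraries lay above all HAMSB libraries for both, with HAMSA 1 the lowest of its diet. Herpud1, of the degradation machinery, changed by 0.46 ± 0.09 (adjusted p = 0.0266) and Sdf2l1, a co-chaperone, by 0.49 ± 0.09 (adjusted p = 0.0187). Their CPM averaged 229 ± 21.2 and 49.8 ± 4.72 in HAMSA, and 166 ± 7.59 and 35.5 ± 2.16 in HAMSB. Sdf2l1 kept its call in 4 of 8 omissions and the others in 2 each (highest adjusted p = 0.166 without HAMSA 2 for Manf). The mean log2 CPM of the list was 6.71, 6.86, 6.61 and 6.85 in HAMSA and 6.53, 6.58, 6.38 and 6.47 in HAMSB, with no overlap.

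**Figure D4:**
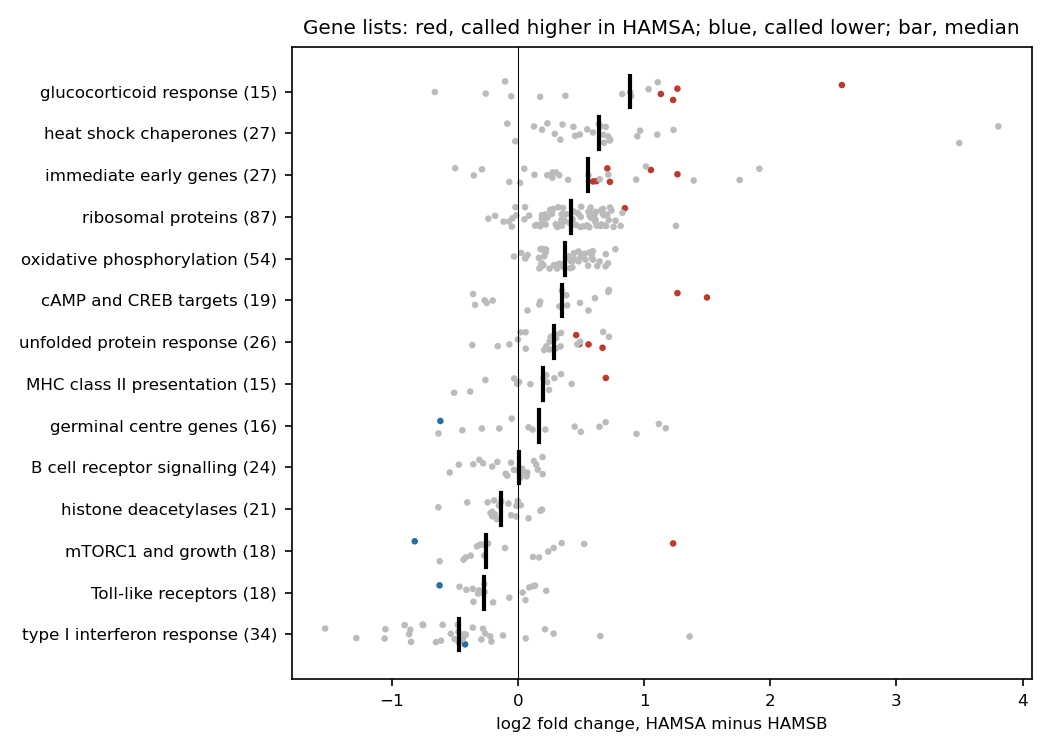
Log2 fold change (HAMSA minus HAMSB) of every measured member of 14 gene lists, with the number measured in brackets. Red points were called higher and blue points lower, and the bar is the median, which runs from 0.889 for glucocorticoid response genes to −0.47 for type I interferon genes.

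Outside these lists, the largest changes toward HAMSA came from Scand1, Tmem238, Pmepa1, Ccdc85b, Tmem160, Zfp771 and Bcl7c. Pmepa1, which encodes an inhibitor of TGF-β signalling and is induced by it, stood at 34, 37.7, 41.7 and 34.7 CPM in HAMSA 1, 2, 3 and 6, against 16.5, 14.5, 13.6 and 13.8 CPM in HAMSB 1, 2, 5 and 6. Both diets were tight and far apart, and the log2 fold change of 1.34 ± 0.16 had the smallest adjusted p of the comparison (0.00388). Pmepa1 kept its call in 8 of 8 omissions and without both HAMSA 2 and HAMSA 3 (1.23, adjusted p = 0.0237). It lies on chromosome 2 from 173224458 to 173276533 (minus strand).

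Scand1, a SCAN domain gene, stood at 73.2, 159.7, 140.5 and 68.6 CPM in HAMSA, against 33, 35.6, 19.2 and 36.3 CPM in HAMSB (1.83 ± 0.28, adjusted p = 0.0111). Bcl7c, which encodes a subunit of the BAF chromatin remodelling complex, stood at 29.9, 45.5, 46.1 and 26.9 CPM in HAMSA, against 16.8, 15.4, 16.8 and 17.6 CPM in HAMSB (1.16 ± 0.16, adjusted p = 0.00798). In both genes HAMSA 2 and HAMSA 3, the libraries of steep GC slope, were the highest, and HAMSA 1 and HAMSA 6 were nearer to HAMSB. The transmembrane protein genes Tmem238 (1.62 ± 0.28, adjusted p = 0.0187) and Tmem160 (1.22 ± 0.22, adjusted p = 0.0191), the coiled-coil gene Ccdc85b (1.23 ± 0.23, adjusted p = 0.0225) and the zinc finger gene Zfp771 (1.19 ± 0.21, adjusted p = 0.0187) had the same order of libraries, with HAMSA 2 and HAMSA 3 above HAMSA 1 and HAMSA 6. Scand1 and Bcl7c kept their call in 8 of 8 omissions and the other 4 in 3 or 4. Without HAMSA 2 and HAMSA 3 none of these 6 was called, with log2 fold changes of 1.19 for Scand1 (adjusted p = 0.112) and 0.77 for Bcl7c (adjusted p = 0.063).

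Among genes called lower in HAMSA, Cd55, the decay-accelerating factor that protects cells from complement, had the largest change of those named. It stood at 207, 149, 125 and 210.4 CPM in HAMSA 1, 2, 3 and 6, against 272, 295, 395 and 336 CPM in HAMSB 1, 2, 5 and 6 (−0.91 ± 0.16, adjusted p = 0.0187). All HAMSA libraries lay below all HAMSB libraries, with HAMSA 3 the lowest and HAMSB 5 the highest. Cd55 has a close copy, Cd55b, and how reads that match both were counted is not given, so its level is uncertain. Il5ra, the interleukin 5 receptor gene, stood at 7.94, 7.4, 4.99 and 9.35 CPM in HAMSA, against 11.5, 12.8, 14.4 and 14 CPM in HAMSB (−0.82 ± 0.17, adjusted p = 0.0394).

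Slamf7 and Slamf1 encode receptors of the SLAM family on lymphocytes. Slamf7 stood at 17, 14, 11.4 and 15.7 CPM in HAMSA, against 24.7, 21.9, 25.3 and 27.8 CPM in HAMSB (−0.78 ± 0.13, adjusted p = 0.0158). Slamf1 stood at 26.9, 23, 26 and 25.6 CPM in HAMSA, against 37.2, 34.3, 43.5 and 45.2 CPM in HAMSB (−0.66 ± 0.12, adjusted p = 0.0222). Neither receptor gene showed overlap between the diets. Slamf7 lies on chromosome 1 from 171632403 to 171653035 and Slamf1 on chromosome 1 from 171767127 to 171801184 (GRCm38, GENCODE M21).

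Gpr155, a cholesterol sensor in the lysosomal membrane, stood at 18, 16.9, 18.6 and 15.6 CPM in HAMSA, against 30.3, 29.4, 26.5 and 35.7 CPM in HAMSB. The diets were far apart for their spread, and the log2 fold change of −0.82 ± 0.12 (adjusted p = 0.00912) was kept in 8 of 8 omissions. Cd180, a Toll-like receptor homologue that B cells carry, stood at 213, 207, 150.1 and 179 CPM in HAMSA, against 324, 298, 228 and 302 CPM in HAMSB (−0.62 ± 0.14), and at an adjusted p of 0.0497 it lost its call in each of the 8 omissions (highest 0.154 without HAMSB 6). Bcor, the corepressor of BCL6, stood at 104, 96.2, 89.9 and 107 CPM in HAMSA, against 147, 129.9, 166 and 164 CPM in HAMSB (−0.61 ± 0.11, adjusted p = 0.0187). Bcl6, the repressor that directs germinal centre B cells, stood at 114, 93.7, 86.2 and 105 CPM in HAMSA, against 152, 112, 189 and 165 CPM in HAMSB and did not pass (−0.63 ± 0.16, adjusted p = 0.085). HAMSB 2 overlapped the HAMSA libraries for Bcl6, while Bcor was lower in every HAMSA library.

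The other named genes of this direction were Stap1, an adaptor of B cell receptor signalling (−0.73 ± 0.14, adjusted p = 0.0273), Arhgef3 (−0.70 ± 0.14, adjusted p = 0.0297), and Mcoln2, an ion channel of endosomes and lysosomes (−0.64 ± 0.12, adjusted p = 0.0227). Carboxypeptidase M (gene Cpm) changed by −0.63 ± 0.13 (adjusted p = 0.0305), and Bbs10, a chaperonin-like protein of cilia, by −0.74 ± 0.16 (adjusted p = 0.0426). Their HAMSA libraries all lay below their HAMSB libraries, at averages of 81.9 ± 12.6, 185 ± 23.5, 42 ± 2.96, 55.2 ± 5.95 and 3.94 ± 0.678 CPM in HAMSA and 136 ± 24.7, 299.5 ± 40.8, 65.6 ± 5.46, 85.7 ± 15.1 and 6.55 ± 0.351 CPM in HAMSB. Of the 12 largest named decreases, Gpr155 alone kept its call in every omission of 1 library. Without both HAMSA 2 and HAMSA 3 none of the 12 was called (adjusted p = 0.071 for Gpr155), nor was any other gene called lower. Slamf7 was kept in 5, Cd55, Slamf1 and Bcor in 4, and the other 7 in 0 to 3.

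Type I interferon response genes had negative log2 fold changes for 29 of 34 members, with a median log2 fold change of −0.47. The member called lower was Stat2, a transducer of interferon signals, at 178, 172, 182 and 164 CPM in HAMSA, against 224, 233, 222 and 250.3 CPM in HAMSB (−0.42 ± 0.09, adjusted p = 0.0382), and no member was called higher. The diets did not overlap for Stat2, but its call was kept in 0 of 8 omissions. For the list as a whole 1 library decided the direction. The mean log2 CPM of the list was 3.98, 4.37, 3.79 and 4.18 in HAMSA 1, 2, 3 and 6, against 3.99, 5.42, 3.77 and 4.16 in HAMSB 1, 2, 5 and 6, with HAMSB 2 far above every other library of both diets. Without HAMSB 2 the median was 0.0223, and among libraries numbered 5 and 6 it was −0.0127.

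Of 18 Toll-like receptor genes and their signalling partners, Cd180 was the 1 called, and the median of −0.265 became 0.00381 without HAMSB 2. B cell activation antigens had 1 of 18 called higher and 2 lower (median −0.0318). The higher one was Plaur, the urokinase receptor gene, at 134, 139, 153 and 148 CPM in HAMSA, against 101, 111, 80.4 and 86.7 CPM in HAMSB (0.60 ± 0.11, adjusted p = 0.0227), and the lower ones were Slamf1 and Slamf7. Plaur kept its call in 3 of 8 omissions and was not called without both HAMSA 2 and HAMSA 3 (0.576, adjusted p = 0.179). Germinal centre genes had 1 of 16 called, Bcor (median 0.167). Plasma cell genes had 1 of 16 called higher, Creld2, and 1 lower, Slamf7 (median 0.272). Follicular B cell genes had 1 of 12 called, Cd55 (median −0.00788).

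Genes for MHC class II presentation had 1 of 15 called higher (median 0.202). Rfxap, a subunit of the RFX complex that drives MHC class II genes, stood at 21.8, 24.1, 26.3 and 22.1 CPM in HAMSA, against 14, 13.9, 14.9 and 15.3 CPM in HAMSB. All HAMSA libraries lay above all HAMSB libraries (0.70 ± 0.10, adjusted p = 0.00798), and no omission of 1 library ended the call. Without both HAMSA 2 and HAMSA 3, Rfxap was not called (0.593, adjusted p = 0.0724). Ciita, the class II transactivator, stood at 520.3, 417, 377 and 717 CPM in HAMSA, against 680.4, 493, 889 and 822 CPM in HAMSB and did not pass (−0.51 ± 0.22, adjusted p = 0.231). Among 21 fatty acid oxidation genes the 1 called was Cpt1a, the carnitine palmitoyltransferase that admits fatty acids to mitochondria. It stood at 142, 150.5, 134 and 165 CPM in HAMSA, against 179.8, 216, 219.6 and 242 CPM in HAMSB (−0.54 ± 0.11, adjusted p = 0.0268), with no overlap, and held its call in 2 of the 8 omissions, with a highest adjusted p of 0.108 without HAMSB 6. Of 18 mTORC1 and growth genes, Ddit4 was higher and Gpr155 lower (median −0.251). Of 14 p53 targets, the DNA damage-inducible gene Gadd45a was higher (0.46 ± 0.10, adjusted p = 0.0499, kept in 1 of 8 omissions; median 0.266).

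Receptors and carriers of short-chain fatty acids had 0 of 8 measured members called (12 in the list; 1 at an unadjusted p under 0.05 and 1 called by DESeq2, 0 by limma voom), with 7 positive and a median of 0.336. The smallest unadjusted p was that of Bsg, the partner protein of monocarboxylate carriers, at 157, 207, 221 and 138 CPM in HAMSA, against 131, 149, 109 and 131 CPM in HAMSB (0.47 ± 0.14, adjusted p = 0.126). Ffar2, the acetate receptor gene, stood at 15.8, 34.8, 30.6 and 12.7 CPM in HAMSA, against 23.8, 27, 1.71 and 16.1 CPM in HAMSB (0.45 ± 0.59, adjusted p = 0.675). It varied widely within both diets and was lowest in HAMSB 5. Slc16a1, a monocarboxylate carrier gene, stood at 21, 29.5, 11.7 and 14.7 CPM in HAMSA, against 15.8, 24.4, 8.84 and 9.71 CPM in HAMSB (0.39 ± 0.34, adjusted p = 0.51). Of the genes that measure low, Ffar3 averaged 1.02 ± 0.724 CPM in HAMSA and 0.919 ± 0.268 CPM in HAMSB (0.12 ± 0.41, adjusted p = 0.885).

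Histone deacetylases and their corepressors had 0 of 21 members called by edgeR, DESeq2 or limma voom (1 at an unadjusted p under 0.05), 17 with a negative log2 fold change and a median of −0.134. Hdac1, a class I enzyme, averaged 54.7 ± 6.09 CPM in HAMSA and 55.1 ± 4.35 CPM in HAMSB (−0.01 ± 0.09, adjusted p = 0.944). Hdac3, another of that class, averaged 75.6 ± 12.3 CPM in HAMSA and 75.6 ± 5.73 CPM in HAMSB (adjusted p = 0.997). Hdac2 had the highest log2 fold change of the list, 0.19 ± 0.09 (adjusted p = 0.261), and the class IIa gene Hdac4 the lowest, −0.63 ± 0.31 (adjusted p = 0.267). Enzymes of acetate and butyrate use had 0 of 21 members called by any of these tools (3 at an unadjusted p under 0.05) and a median of 0.0402. These are transcript levels, and neither acetylation nor enzyme activity was measured.

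Ribosomal protein genes had positive log2 fold changes for 79 of 87 members (median 0.422), with Rps2 the 1 called, at 449.9, 660.4, 596 and 429.6 CPM in HAMSA, against 308, 346, 202 and 330.2 CPM in HAMSB (0.85 ± 0.17, adjusted p = 0.0266). Rps2 kept its call in 3 of 8 omissions and was not called without both HAMSA 2 and HAMSA 3 (0.566, adjusted p = 0.302). Pseudogene copies of Rps2 share its reads, so its level is uncertain. Nuclear genes of oxidative phosphorylation had 0 of 54 called and 53 positive (median 0.375), with 22 at an unadjusted p under 0.05 and 4 called by DESeq2 and 0 by limma voom. The mean log2 CPM of the ribosomal list was 6.49, 6.98, 6.92 and 6.41 in HAMSA 1, 2, 3 and 6, against 6.39, 6.55, 5.73 and 6.39 in HAMSB 1, 2, 5 and 6. HAMSA 2 and HAMSA 3 were high and HAMSB 5 was low, while the remaining libraries of both diets lay close together. Cell cycle genes had 0 of 40 called by edgeR, DESeq2 or limma voom, 0 at an unadjusted p under 0.05 and 38 positive (median 0.371), at a mean log2 CPM of 4.28, 5.10, 4.21 and 3.88 in HAMSA and 4.30, 4.66, 3.26 and 3.58 in HAMSB. HAMSA 2, at 6950 CPM of erythroid markers, was the highest for the cell cycle list too. HAMSA 6, at a similar 6633 CPM, was the lowest of the HAMSA libraries for that list. The part of red cell precursors in these values was not tested.

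The genes of the 2 directions differed in the make-up of their transcripts, given here as a description. The 88 higher genes had a median transcript GC content of 56.2%, a median transcript length of 1939.5 bases and a median of 4 exons. The 29 lower genes had 46.0%, 3575 bases and 8 exons, and all genes tested 50%, 2743 bases and 7 exons. Transcripts of a single exon made up 21.6% of the higher genes and 11.3% of all genes tested, and a GC content over 60% was found in 34.1% of the higher genes, 0 of the lower genes and 4.38% of all. Among 11428 genes with a mean of at least 1 log2 CPM, the median log2 fold change went up with GC content, being −0.27 under 40%, 0.22 between 60% and 65%, where 5.56% were called higher, and 0.529 at 65% or more, where 8 of 32 genes were called higher. Spearman's correlation of the log2 fold change across these genes was 0.371 with GC content and −0.518 with transcript length, given as a description, since genes of 1 library share its preparation.

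**Figure D5:**
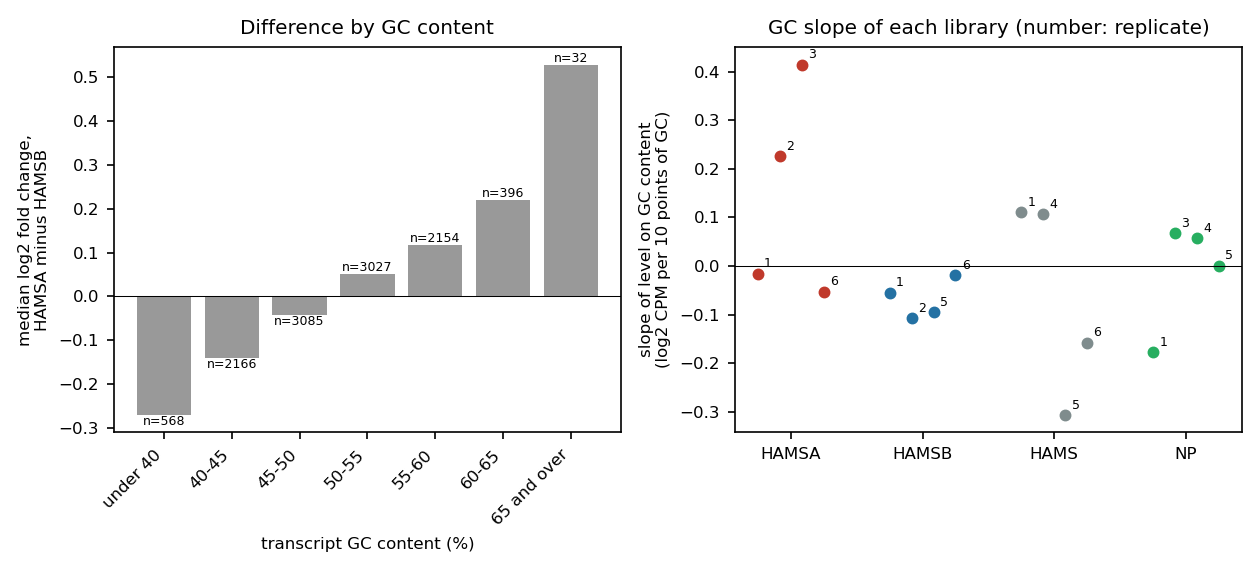
Left, the median log2 fold change (HAMSA minus HAMSB) of genes grouped by transcript GC content, with the number of genes. Right, the slope of each library's gene levels on GC content, numbered by replicate. The medians run from −0.27 to 0.529, and HAMSA 2 and HAMSA 3 have the steepest positive slopes, 0.226 and 0.415.

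The number of calls stayed close to the main one when each library's own GC and length curves were taken out, an alternative chosen after the data were seen, but the genes changed. With a GC offset 128 genes were called (86 higher and 42 lower, 75 of them among the 117), with a length offset 124 (94 and 30, 86 among the 117) and with both 140 (93 and 47, 67 among the 117). With both offsets Cebpb stood at 2.11 (adjusted p = 0.0418), Pmepa1 at 1.35 (0.00645), Ier5 at 0.56 (0.00645), Sik1 at 1.5 (0.028), Cd55 at −0.79 (0.0181), Slamf7 at −0.69 (0.0125) and Bcor at −0.49 (0.0104), all still called. Jund at 0.56 (0.0656), Ier2 at 0.47 (0.138), Dusp1 at 1.15 (0.0715), Ddit4 at 1.05 (0.0632), Tsc22d3 at 1.08 (0.0543) and Gpr155 at −0.62 (0.0875) kept their direction and were no longer called.

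The plain starch and NP diets give the acylated diets a context. HAMSA and HAMSB share the same HAMS and NP libraries in these comparisons, so the values are given side by side. The genes were picked for a gap between HAMSA and HAMSB, which by itself favours a mean of another diet between them. The places of HAMS and NP are therefore given as a description. Over the 88 genes higher in HAMSA than in HAMSB, the median log2 fold change was 0.18 for HAMSA minus HAMS and −0.46 for HAMSB minus HAMS, and 0.44 for HAMSA minus NP and −0.21 for HAMSB minus NP. The mean of HAMS lay between those of HAMSA and HAMSB for 69 of these genes and beyond that of HAMSA for 19. Over the 29 lower genes the medians were −0.11 for HAMSA minus HAMS and 0.61 for HAMSB minus HAMS, and −0.64 for HAMSA minus NP and 0.01 for HAMSB minus NP. Over all genes, edgeR called 0 between HAMSA and HAMS (0%; smallest adjusted p = 0.300, 1751 genes at an unadjusted p under 0.05; DESeq2 called 103 and limma voom 0), 252 between HAMSB and HAMS (1.68%, of which 0.433% higher and 1.24% lower), 212 between HAMSA and NP (1.41%, of which 0.606% higher and 0.806% lower) and 11 between HAMSB and NP (0.0732%).

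Single genes differed in their place among the diets. Sik1 averaged 150.1 ± 91.1 CPM in HAMSA and 53.1 ± 1.11 CPM in HAMSB, beside 345 ± 58.2 CPM in HAMS and 112 ± 25.7 CPM in NP. Dusp1 averaged 26.5 ± 10.2 CPM in HAMSA and 11 ± 1.81 CPM in HAMSB, beside 53 ± 10.7 CPM in HAMS and 14.7 ± 3.98 CPM in NP. For these genes HAMSA lay between HAMSB and HAMS. Scand1 averaged 110.5 ± 46.4 CPM in HAMSA and 31 ± 8 CPM in HAMSB, beside 52.9 ± 5.99 CPM in HAMS and 54.9 ± 14.5 CPM in NP, so that HAMS and NP lay between the acylated diets. Slamf7 averaged 14.5 ± 2.42 CPM in HAMSA and 24.9 ± 2.41 CPM in HAMSB, beside 10.8 ± 0.941 CPM in HAMS and 24.7 ± 2.9 CPM in NP. Cd55 averaged 173 ± 42.3 CPM in HAMSA and 324 ± 54.1 CPM in HAMSB, beside 242 ± 33.1 CPM in HAMS and 236 ± 13.4 CPM in NP. The mean of Slamf7 in HAMSB was close to that of NP, whereas the mean of Cd55 in HAMSB was the highest of the 4 diets.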

How the data were processed

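Poly(A) RNA of negatively selected splenic B cells was sequenced in 16 stranded libraries. The deposited table holds counts per gene that the authors made, per the submitters' processing notes, with STAR and featureCounts (Subread) and analysed with edgeR and limma. Versions, genome build and annotation are not given in the sources used here, nor are rules for reads that match several genes. Library columns were matched to samples by their names. Tests were run with edgeR 4.0.16 under R 4.3.3 (TMM scaling, filter at a minimum count of 10, leaving 15021 of 39179 genes, quasi-likelihood F test over the 4 diets with 12 residual degrees of freedom, Benjamini-Hochberg adjustment, threshold 0.05). Library measures were compared by exact two-sided permutation tests. Alternatives used DESeq2 1.42.0, limma 3.58.1, other scalings and filters, and omitted libraries. Transcript GC content, length and coordinates came from GENCODE M21 (GRCm38), and promoters from RefSeq (GRCm38.p6).

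Genes were named by a rule: the 12 largest changes each way among called genes with a mean of at least 1 log2 CPM, leaving out immunoglobulin segments, unnamed genes and pseudogenes, and up to 4 members per list with the smallest p. Others are said to be chosen after their values were seen. The diets compared and the gene lists were chosen with earlier results of these data known. Depth ranged from 15053965 to 46206200 counts. On simulated counts for this comparison (14845 genes), the test called 38% of genes changed 1.5-fold, 86% of those changed 2-fold and 100% of those changed 4-fold, with 50 genes each, and 5 unchanged genes. Changes were put only in genes with a mean of at least 2 CPM. Counts were drawn independently for each gene, without the GC, length or red cell differences between these libraries, so the shares may not hold for the real data.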

Additional observations from a re-analysis of the deposited data

Results flagged for a closer look

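Of 198 groups of 4 libraries examined, 6 had 1 library far from the other 3, and chance flags about 1 in 20 groups. The HSP90 co-chaperone gene Fkbp4 stood at 300.1 CPM in HAMSA 6, against 207.3 to 214 CPM in the other HAMSA libraries. The total count of HAMSA 1 was 30720000, against 15050000 to 17450000 in the other HAMSA libraries. The B cell markers summed to 18600 CPM in HAMSA 3, against 16170 to 16370 CPM in the others of that diet. The macrophage and monocyte markers summed to 772.9 CPM in HAMSA 2, against 584.2 to 610.1 CPM in the others. Ccdc85b stood at 13.81 CPM in HAMSB 6, against 9.736 to 9.873 CPM in the other HAMSB libraries, and Tmem160 at 12.65 CPM in HAMSB 5, against 18.36 to 19.36 CPM in the others.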

How the results depend on the processing

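No called gene changed sign in any alternative, which omissions could hardly bring about for genes whose libraries do not overlap. The number called varied (117 in the fit reported, 88 higher and 29 lower). DESeq2 called 600 (384 higher, 216 lower). The fit to the 8 HAMSA and HAMSB libraries called 4 (4 higher, 0 lower), reads outside exons entered as a covariate left 0 (0 higher, 0 lower), the erythroid markers as a covariate 2 (2 and 0), libraries numbered 1 to 4 gave 10 (10 and 0), leaving out HAMSA 2 and 3 gave 8 (8 and 0) and leaving out HAMSA 2 and 6 gave 2 (2 and 0). Lower calls alone numbered 17 with limma voom, 17 after thinning, 2 among libraries numbered 5 and 6 and 47 with the GC and length offset. RLE scaling (114), library totals (98), no filter (83), and a 1 CPM filter (132) stayed within 1.5 times. The joint omissions of HAMSA 2 with HAMSA 3 or HAMSA 6 and the GC and length offsets were chosen after seeing the data. Leaving out 1 library gave 13 to 187 calls, 12 to 138 higher and 1 to 49 lower.

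The labels give the diets 3 shared replicate numbers, and the deviations of same-numbered libraries correlated at −0.0606, 0.491 and 0.275. The labels do not say that the numbers pair libraries, so same-numbered libraries were not treated as pairs in the main fit. HAMSA 1 and HAMSA 6 correlated best with HAMSB 5 (0.18 and 0.324), and HAMSA 2 with HAMSB 2. These values do not settle whether the numbers pair libraries. HAMSA 2 correlated at 0.354 and 0.491 with HAMSB 1 and 2, but at −0.424 and −0.394 with HAMSB 5 and 6. HAMSA 6 had the reverse (−0.247, −0.371, 0.324 and 0.275), and HAMSA 1 and HAMSA 3 had values from −0.159 to 0.18. Of the libraries numbered 5 and 6, HAMSA holds HAMSA 6 alone and HAMSB holds HAMSB 5 and HAMSB 6. Diet and number are thus unbalanced, and the part of the number in the calls was not tested further. A fit with the replicate block called 2 genes (2 higher, 0 lower; 1933 at an unadjusted p under 0.05).

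The heat shock median was 1.29 among libraries numbered 5 and 6. The glucocorticoid response median was 0.573 among libraries numbered 1 to 4, 0.705 among those numbered 5 and 6, 0.731 with the length offset and 0.708 to 0.932 on leaving out 1 library, and the unfolded protein response median was 0.429 among libraries numbered 5 and 6. Among the 81 genes followed, 2348 values under alternatives held 12 of reversed sign, none of a called gene. With the share outside exons as a covariate they were Ciita 0.0649, Slc16a1 −0.0523, Slc16a3 −0.144, Ffar2 −0.634, Hdac6 0.0625, Hdac4 0.0638, Etfb −0.212 and Tsc1 0.0133, with the erythroid covariate Slc16a1 −0.17 and Slc16a3 −0.0294, and without HAMSA 2 and 3 Ffar2 −0.265 and Etfb −0.0148. On leaving out 1 library, the difference (HAMSA minus HAMSB) ranged from −0.138 to 1.83 points for unmapped reads, and in summed CPM from −797 to 49.8 for B cell, −32.7 to 126 for macrophage, −70.5 to 52.8 for T cell, −17.2 to 17.1 for NK, −24.4 to 102 for platelet and −1.17 to 4.24 for mast cell markers. The causes were not tested. Depth limits genes of few counts, and in the simulation most changes of 1.5-fold were missed.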
